A study of Mus musculus with 12 samples.

Results

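Mast cells, basophils and eosinophils are granulocytes of the allergic and antiparasitic response, and 10 genes that mark them are described here in leukaemic stem cells of the mouse. The 10 genes are Ms4a2, Fcer1a, Hdc, Cpa3, Mcpt8, Cma1, Tpsb2, Prg2, Prg3 and Epx. They were taken as the probe sets whose sole gene symbol in the annotation was 1 of these names, which gave 13 probe sets of the 45037 on each array. Ms4a2, Hdc and Tpsb2 had 2 probe sets each. The annotation named 18193 genes by such probe sets, and 10817 of them passed the filter on dim signal and were tested. Of the 10 marker genes 7 passed, and Fcer1a, Tpsb2 and Epx were not tested.

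RNA was measured on 12 Affymetrix arrays in 4 groups of 3. Stem and progenitor cells (KLS) came from wild-type mice or from mice homozygous for a gene trap in Msi2 (Msi2 Gt/Gt), which encodes an RNA-binding protein of the Musashi family. All donors were of the strain labelled B6;CB-Msi2Gt(pU-21T)2Imeg, and none of the mice was treated. Cells infected with MLL-AF9 were transplanted to give de novo acute myeloid leukaemia (AML), from which Lin-Sca1-ckit+ cells were sorted. Cells infected with BCR-ABL and NUP98-HOXA9 gave blast crisis chronic myeloid leukaemia (bcCML), from which Lin- cells were sorted. The 4 groups are wild-type AML, mutant AML, wild-type bcCML and mutant bcCML. The 2 leukaemias differ in their oncogenes and in the sort, since gates on Sca1 and Kit were set in AML alone. Oncogenes and sort cannot be told apart in any comparison between the leukaemias. The trap was carried by the donor cells throughout, and the labels give neither animal ages nor how many animals an array stands for. They call the samples biological replicates without naming animals, so the p values measure the spread between these samples.

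As background, mast cells and basophils carry the high-affinity IgE receptor, whose alpha chain (Fcer1a) binds IgE and whose beta chain (Ms4a2) strengthens signalling. Its cross-linking releases histamine, which the enzyme histidine decarboxylase (Hdc) makes, and proteases stored in granules. Mast cells store carboxypeptidase A3 (Cpa3), chymase (Cma1) and tryptase (Tpsb2), and mouse basophils store Mcpt8. Eosinophil granules hold major basic protein (Prg2), its homologue Prg3 and eosinophil peroxidase (Epx). Transcription factors of the GATA family take part in forming all 3 cell types, and immature myeloid cells can carry RNA of these granule proteins.

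Values are given as intensity units, which had a floor of 4.49 on every array, and a probe set was counted as detected on an array above 16 units. Intensities of different genes are not compared with each other. The targeted gene followed the labels. Msi2 lay between 181 and 430.3 units in wild-type AML and between 52.9 and 86.9 in mutant AML, and between 2583 and 4579 in wild-type bcCML and 487 and 721 in mutant bcCML. Replicate arrays correlated at 0.978 to 0.992 over all probe sets, and the median intensity of an array ran from 13.1 to 13.8. Kit was above 16 units on all 12 arrays, from 169 to 435 in AML and from 78.2 to 546 in bcCML. Itgam, a myeloid marker that Lin cocktails usually hold, lay between 35.0 and 86.6 units in AML and between 4.49 and 4.52 in bcCML.

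The promoters of the 4 genes whose level differed between the leukaemias (Ms4a2, Hdc, Cma1 and Prg3) are shown here because they could be searched for GATA motifs. Each line gives the 250 bases before the annotated start on the gene's own strand, from RefSeq on the GRCm38.p6 build, with GATA matches in capitals. Ms4a2 is at chr19:11623720-11623969 (minus strand), Hdc at chr2:126618679-126618928 (minus), Cma1 at chr14:55944676-55944925 (minus) and Prg3 at chr2:84987965-84988214 (plus).
Ms4a2: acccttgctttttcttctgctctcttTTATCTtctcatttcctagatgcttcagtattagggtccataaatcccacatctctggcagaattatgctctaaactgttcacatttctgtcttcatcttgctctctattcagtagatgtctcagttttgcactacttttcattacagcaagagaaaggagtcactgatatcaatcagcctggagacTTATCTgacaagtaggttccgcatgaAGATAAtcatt
Hdc: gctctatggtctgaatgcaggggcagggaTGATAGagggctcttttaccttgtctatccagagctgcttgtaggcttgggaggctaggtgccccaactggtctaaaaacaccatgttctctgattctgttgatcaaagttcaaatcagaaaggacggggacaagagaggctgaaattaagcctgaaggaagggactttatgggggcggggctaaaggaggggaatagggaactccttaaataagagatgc
Cma1: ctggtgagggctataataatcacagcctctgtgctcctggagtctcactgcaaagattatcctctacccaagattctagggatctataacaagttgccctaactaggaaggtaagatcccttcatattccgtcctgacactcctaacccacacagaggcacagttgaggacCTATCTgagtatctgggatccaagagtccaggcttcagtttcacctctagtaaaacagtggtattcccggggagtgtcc
Prg3: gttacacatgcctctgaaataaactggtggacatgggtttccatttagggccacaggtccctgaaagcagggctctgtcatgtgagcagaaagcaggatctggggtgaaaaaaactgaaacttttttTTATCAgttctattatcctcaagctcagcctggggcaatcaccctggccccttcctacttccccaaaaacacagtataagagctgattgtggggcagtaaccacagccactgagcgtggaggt
A match was AGATAA or TGATAA or AGATAG or TGATAG on either strand, so that a match on the opposite strand reads TTATCT or TTATCA or CTATCT or CTATCA. Ms4a2 held 3 matches, of which the nearest lay 11 to 6 bases before the start. Hdc, Cma1 and Prg3 held 1 each, as did Fcer1a and Cpa3, whereas Mcpt8 and Epx held none. That made 6 of the 8 promoters that could be matched, where 26.5% of all 32851 promoters of this length hold such a match. E-boxes (CACGTG or CATGTG) were in 2 of the 8 against 17.6% of all promoters, and the Stat palindrome (TTC and GAA with any 3 bases between) in 0 of 8 against 7.02%. No GATA match overlapped a match of another motif. These are matches of letters and not shown binding sites. Prg2 and Prg3 are neighbours on chromosome 2 with 0 protein-coding genes between them, Mcpt8 and Cma1 lie on chromosome 14 with 5 between, and Epx lies on chromosome 11 with 9 between it and Msi2.

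Ms4a2, its beta chain, read 37.0, 37.8 and 11.99 units on wild-type AML arrays 1 to 3 and 45.3, 9.19 and 43.6 on the mutant AML arrays. In bcCML it read 1764, 2634 and 2016 units on the wild-type arrays and 2148, 2477 and 712 on the mutant arrays. Every bcCML array was above every AML array, with no overlap, while wild-type and mutant arrays overlapped within each leukaemia. Mutant bcCML array 3 was the lowest of the 6 bcCML arrays. The group means were 28.9 ± 14.7 and 32.7 ± 20.4 units in wild-type and mutant AML, and 2138 ± 448 and 1779 ± 939 in wild-type and mutant bcCML (SD, n = 3). The second probe set of Ms4a2 read 4.56 to 4.91 units in AML, 142 to 344 in wild-type bcCML and 49.1 to 308 in mutant bcCML, the same order of leukaemias at a lower signal.

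Fcer1a, the chain that binds IgE, did not accompany Ms4a2. It lay between 4.49 and 4.52 units on 10 of the 12 arrays and was detected on mutant bcCML array 2 at 246 units and on mutant bcCML array 3 at 16.6. The first of these arrays is the one on which Ms4a2 was highest among the mutants, and the second is the one on which it was lowest. The 3 wild-type bcCML arrays, with 1764 to 2634 units of Ms4a2, had Fcer1a at 4.49 to 4.51.

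Hdc, the enzyme that makes histamine, was detected on all 12 arrays. It read 1169.9, 581 and 348 units in wild-type AML and 1209, 1378 and 451 in mutant AML. In bcCML it read 4357, 4377 and 1160.0 units on the wild-type arrays and 1179, 3862 and 858 on the mutant arrays. Wild-type bcCML arrays 1 and 2 and mutant bcCML array 2 stood above all AML arrays, and the other 3 bcCML arrays overlapped with AML. The second probe set of Hdc spanned 53.2 to 256 units over the AML arrays and 127 to 1170.3 over the bcCML arrays, with the same 3 arrays at the top.

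Among the granule proteases, Cpa3 varied most within groups. It read 172, 10.3 and 199.5 units in wild-type AML and 319.7, 8.40 and 58.9 in mutant AML, so that array 2 was under the detection level in both groups. In bcCML it read 461, 228 and 100.3 units on the wild-type arrays and 89.4, 414 and 8.26 on the mutant arrays. All 4 groups overlapped, and in mutant bcCML the highest array was 50.1 times the lowest, which was under the detection level.

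Mcpt8, the basophil protease, was detected on all 12 arrays, at 794, 492 and 489 units in wild-type AML and 2036, 714 and 582 in mutant AML. In bcCML it read 3625.5, 1788 and 333 units on the wild-type arrays and 362, 1796 and 45.6 on the mutant arrays. The groups overlapped, and bcCML held both the highest and the lowest arrays of the 12. Mcpt8 lies beside Ctsg, a neutrophil protease gene, with 0 protein-coding genes between them.

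Cma1, the chymase, was at the floor in AML and detected on all 6 bcCML arrays. AML arrays lay between 4.50 and 4.60 units. The wild-type bcCML arrays read 101, 101 and 26.6 units and the mutant bcCML arrays 35.1, 350.1 and 31.5. Mutant bcCML array 2 was the highest, as it was for Fcer1a. Tpsb2, the tryptase, was not detected: its 2 probe sets ran from 4.51 to 6.39 units, with the highest value again on mutant bcCML array 2.

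The eosinophil granule proteins followed another order. Prg2 read 1908, 839 and 1099 units in wild-type AML and 2299.7, 37.8 and 253 in mutant AML. In bcCML it read 2205, 493 and 83.2 units on the wild-type arrays and 149.5, 148 and 7.70 on the mutant arrays. The 3 mutant bcCML arrays lay below all 3 wild-type AML arrays, but within the range of the mutant AML arrays except for array 3, and they overlapped with the wild-type bcCML arrays.

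Prg3, the homologue beside Prg2, read 558, 437 and 281 units in wild-type AML and 559, 63.9 and 30.45 in mutant AML. In bcCML it read 115, 36.5 and 6.08 units on the wild-type arrays and 9.41, 9.92 and 5.66 on the mutant arrays. All 3 wild-type AML arrays were above all 3 wild-type bcCML arrays, and all 3 mutant AML arrays were above all 3 mutant bcCML arrays. Prg3 was not detected on any mutant bcCML array. Epx, the peroxidase, was detected on mutant AML array 1 at 201 units and on wild-type bcCML array 1 at 60.4, and on the other 10 arrays it lay between 4.52 and 8.63. Those 2 arrays also held the highest Prg2 value of AML and of bcCML.

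**Figure D1:**
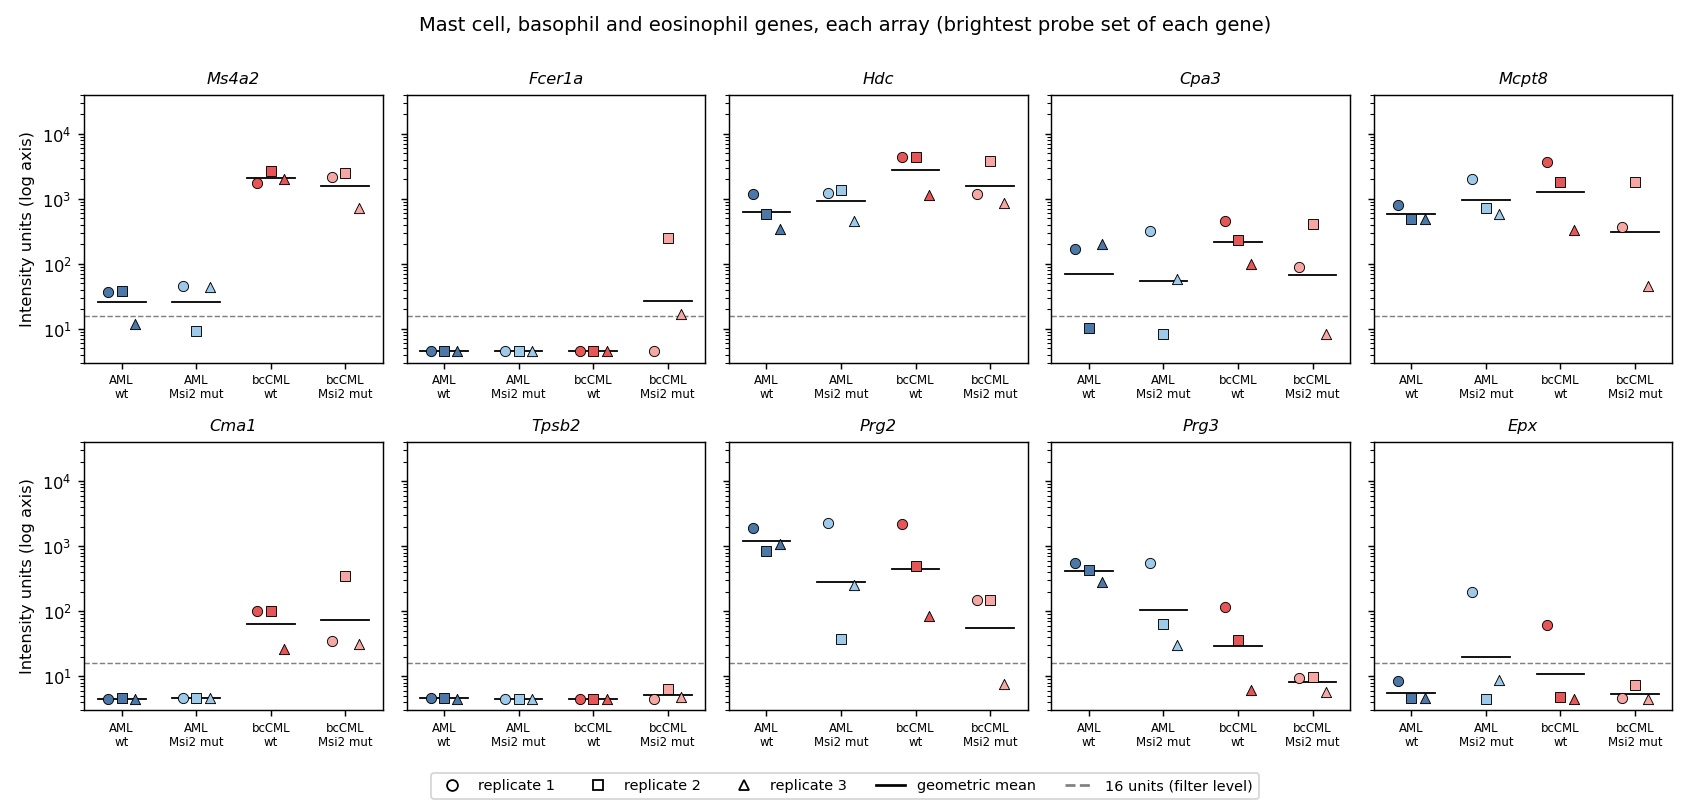
Intensity of each gene on each of the 12 arrays (log axis), by group, with 1 symbol per replicate, a bar at the group's geometric mean and a dashed line at the detection level of 16 units. Ms4a2 and Cma1 are higher on every bcCML array than on every AML array, and replicates of Cpa3, Mcpt8 and Prg2 spread widely within groups.

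The comparison of mutant with wild-type cells asks what the Msi2 trap changes in each leukaemia. In AML 0 of the 7 tested genes passed limma's test at an adjusted p of 0.05, where 1.52% of the 10817 genes passed, and 0 of the 7 had an unadjusted p under 0.05, where 14.2% of all genes did. Mutant and wild-type arrays overlapped in all 7, where 5.18% of all genes were higher and 11.6% lower without overlap. The log2 difference (mutant minus wild type) was positive in 4 and negative in 3, with a median of 0.02 beside -0.05 over all tested genes. The largest differences were those of the eosinophil genes: Prg2 at -2.11 ± 1.66 (SE; 95% interval -5.79 to 1.57; limma adjusted p = 0.654) and Prg3 at -1.99 ± 1.14 (-4.52 to 0.53; adjusted p = 0.490). Mutant AML array 1 was above the wild-type arrays in both genes, and arrays 2 and 3 were below all wild-type arrays. Ms4a2 differed by 0.04 ± 0.70, Hdc by 0.56 ± 0.74 and Mcpt8 by 0.71 ± 1.22.

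In bcCML 0 of the 7 passed, where 0.139% of all genes did, and 0 of the 7 had an unadjusted p under 0.05, where 8.32% of all genes did. The log2 difference was negative in 6 and positive in Cma1 alone (0.17 ± 0.82), with a median of -1.70 beside -0.02 over all tested genes. Prg2 differed by -3.02 ± 1.66 (95% interval -6.69 to 0.66; limma adjusted p = 0.670), Mcpt8 by -2.06 ± 1.22 (-4.77 to 0.65; adjusted p = 0.702) and Cpa3 by -1.70 ± 1.70 (-5.48 to 2.07; adjusted p = 0.861). Hdc differed by -0.83 ± 0.74, Ms4a2 by -0.44 ± 0.70 and Prg3 by -1.86 ± 1.14, the last with its mutant arrays below the detection level. The intervals of all 7 held 0 and also held differences of more than 1 log2 unit downwards, so changes of that size were neither shown nor excluded with 3 arrays a group. Wild-type and mutant arrays overlapped in all 7 genes, where 5.83% of all genes were higher and 10.1% lower without overlap. Same-numbered bcCML arrays deviated together, and within these 3 pairs the mutant array was below the wild-type array in all 3 for Hdc, Prg2 and Prg3, in 2 for Ms4a2, Cpa3 and Mcpt8 and in 1 for Cma1. Of all tested genes 22.4% were lower in all 3 pairs. The replicate number was then added as a block to the fit of all 12 arrays. With it 0 of the 7 passed (limma adjusted p from 0.378 for Prg2 and 0.412 for Mcpt8 to 0.977 for Cma1). Prg2 (0.0116) and Mcpt8 (0.0153) then had an unadjusted limma p under 0.05, as did 9.21% of all genes. The block also spans the AML arrays, which the numbers did not pair, so these are not p values of the bcCML pairs alone.

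Whether the trap acts differently in the leukaemias was tested as the bcCML difference minus the AML difference, which called 0 of the 7 and 0% of all genes, while 9.37% of all genes and 0 of the 7 had an unadjusted p under 0.05. Mcpt8 had the largest value, -2.78 ± 1.73 (95% interval -6.61 to 1.06; limma adjusted p = 0.656). In wild-type arrays Mcpt8 averaged 592 ± 175 units in AML and 1915 ± 1650 in bcCML, and in mutant arrays 1110.4 ± 804 and 734 ± 933 (SD, n = 3).

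The comparison of bcCML with AML places the genes by leukaemia. In wild-type cells 4 of the 7 passed, 3 higher in bcCML and 1 lower, where 36.9% of all genes passed (17.7% higher and 19.3% lower). Ms4a2 was higher by 6.36 ± 0.70 log2 units (95% interval 4.81 to 7.92; limma adjusted p = 6.901e-05). Hdc was higher by 2.18 ± 0.74 (0.54 to 3.82; adjusted p = 0.04026) although wild-type bcCML array 3 lay within the AML range. Cma1, at the floor in AML, was at least 4.05-fold higher (adjusted p = 0.004596), a bound set by the bcCML mean against 16 units. Prg3 was lower in bcCML, with a difference of -3.80 ± 1.14 (-6.32 to -1.28; adjusted p = 0.02405). Cpa3 (1.63 ± 1.70), Mcpt8 (1.17 ± 1.22) and Prg2 (-1.43 ± 1.66) did not pass. Groups did not overlap in Ms4a2 and Cma1 (higher) and in Prg3 (lower), where 25.6% and 26.8% of all genes did not overlap in those directions.

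In mutant cells 3 of the 7 passed, 2 higher and 1 lower, where 45.1% of all genes did (23.2% higher and 21.9% lower). Ms4a2 was higher by 5.89 ± 0.70 log2 units (limma adjusted p = 8.732e-05), Cma1 was at least 4.56-fold higher (adjusted p = 0.002859) and Prg3 at least 6.42-fold lower (adjusted p = 0.0233). The arrays of these 3 did not overlap, where 29.0% of all genes were higher and 26.5% lower without overlap. Hdc did not pass (0.79 ± 0.74; adjusted p = 0.413), and neither did Cpa3 (0.32 ± 1.70), Mcpt8 (-1.61 ± 1.22) or Prg2 (-2.34 ± 1.66). The wild-type and mutant comparisons take their means from different arrays but share an estimate of spread per gene from all 12 arrays. They are thus not independent tests. Each also shares its arrays with the comparisons of mutant with wild type.

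The calls differed in how they held. The Ms4a2 calls passed under every alternative run. Cma1 missed the threshold where values under 16 units were set to 16 (adjusted p = 0.0802 in wild-type and 0.0517 in mutant cells) and passed without any single array. The Hdc call in wild-type cells ended without wild-type AML array 2 or 3, wild-type bcCML array 1 or 2, or mutant bcCML array 1 (adjusted p from 0.0509 to 0.126). The Prg3 call in wild-type cells ended without wild-type AML array 1 or 2 or wild-type bcCML array 3 (0.0594 to 0.0863), and in mutant cells without mutant AML array 1 (0.0724) or mutant bcCML array 3 (0.0697). With no filter on low values both Prg3 calls ended (0.0653 in wild-type and 0.0633 in mutant cells), and so did that of Hdc (0.0980).

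**Figure D2:**
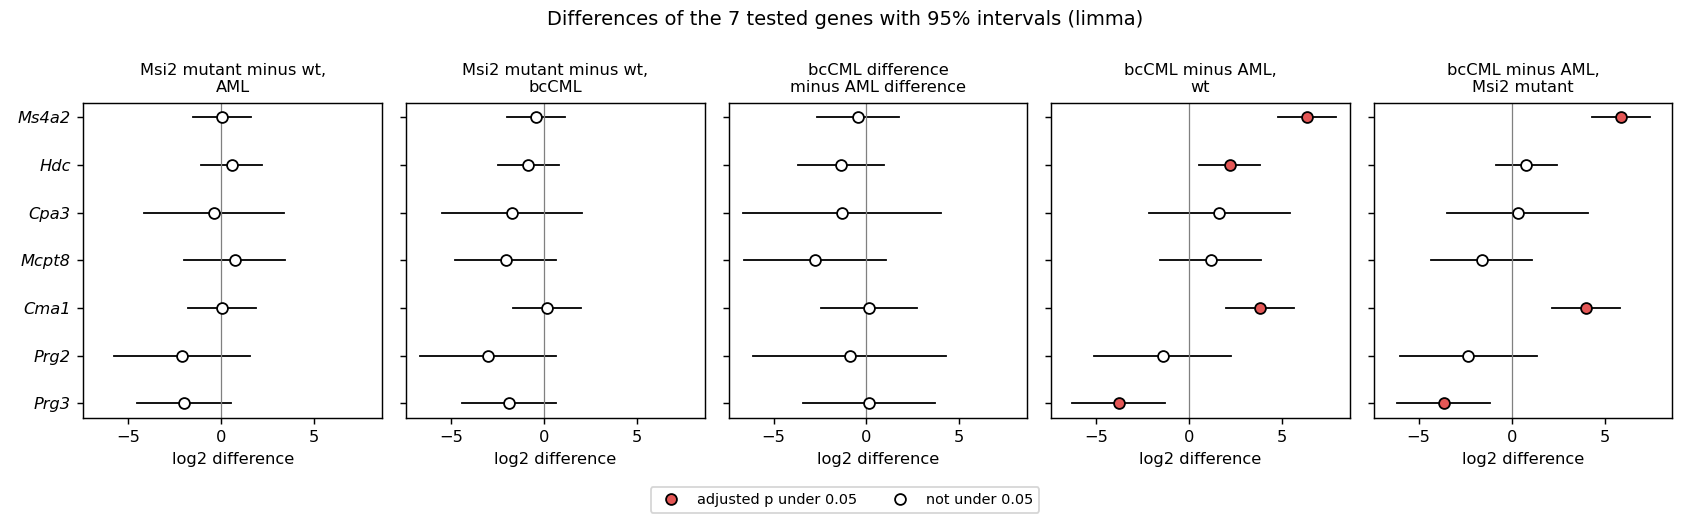
Log2 differences of the 7 tested genes in the 5 comparisons, with 95% intervals from limma and filled points where the adjusted p was under 0.05. Filled points are in the 2 comparisons between leukaemias alone, and in the 3 comparisons that involve the Msi2 trap every interval crosses 0.

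The 7 tested genes varied widely between replicates. The residual SD within groups, in log2 units, was 2.35 for Cpa3, 2.28 for Prg2, 1.68 for Mcpt8, 1.56 for Prg3, 1.13 for Cma1, 1.01 for Hdc and 0.959 for Ms4a2, against a median of 0.309 over the 10817 tested genes. The value for Cma1 pools AML groups at the floor (SD 0.0175 in wild-type and 0.0018 in mutant cells) with 1.11 and 1.96 in bcCML. Its SE of 0.82 in bcCML thus rests in part on arrays at the floor. Arrays under the detection level also enter the SDs of Ms4a2, Cpa3, Prg2 and Prg3, where changes are measured in part. Hdc and Mcpt8 alone were detected on all 12 arrays. A larger SD than that of Cpa3 was found in 0.0462% of tested genes, than that of Prg2 in 0.0555%, and than that of Mcpt8 in 0.638%. Among the genes within 1 log2 unit of each in mean level the shares were 0.0972%, 0% and 0.282%, and for Ms4a2, Hdc and Cma1 they were 4.84%, 1.06% and 11.5%. The ratio of the highest to the lowest array of a group had a median over the 7 genes of 2.28 in wild-type AML, 4.93 in mutant AML, 4.60 in wild-type bcCML and 11.1 in mutant bcCML, where all tested genes had medians of 1.32 to 1.46. The highest ratio, 60.8, was that of Prg2 in mutant AML.

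**Figure D3:**
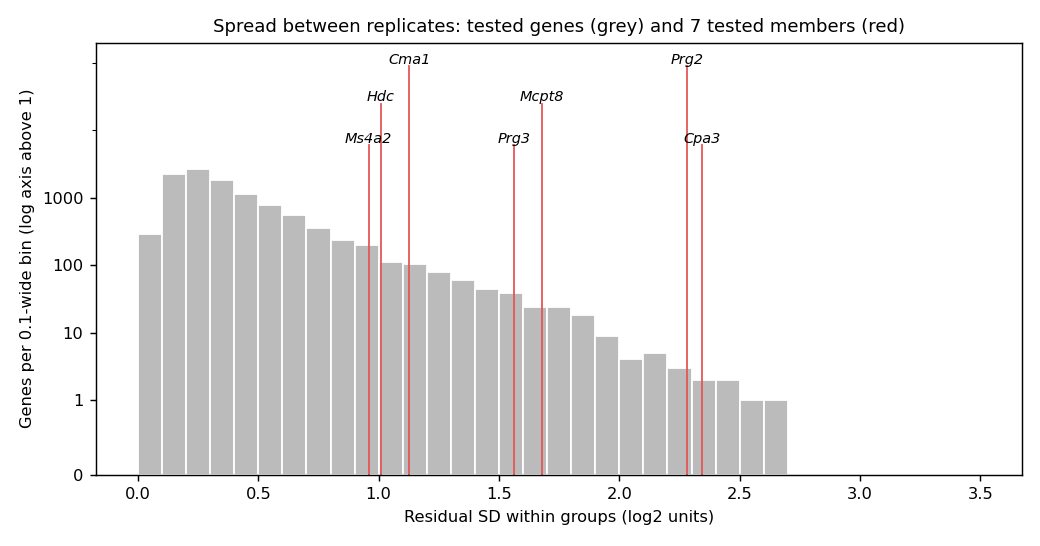
Histogram of the residual SD within groups over the 10817 tested genes (grey, in bins 0.1 log2 units wide, log axis above 1), with the 7 tested genes as red lines. All 7 lie to the right of the median of 0.309, between 0.959 (Ms4a2) and 2.35 (Cpa3).

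Some arrays were the lowest or highest in most of the 7 genes, and those named here were picked from all 12. Mutant bcCML array 3 was the lowest of its group in 7 of the 7 genes, as it was in 26.0% of all tested genes, and the lowest of all 6 bcCML arrays in 6 of 7 (14.5% of all genes). It was at least 1 log2 unit below both other mutant arrays in 4 of 7, against 0.989% of all genes. This gap was counted for this array alone. A gap of that size is likelier in genes of large SD, as the 7 are, so the 2 shares are not alike. Mutant bcCML array 2 was the highest of its group in 6 of 7 (34.6% of all genes). Wild-type bcCML array 3 was the lowest of its group in 6 of 7 (31.4%) and wild-type bcCML array 1 the highest in 5 of 7 (35.2%). In AML, mutant array 1 was the highest of all 6 arrays in 5 of 7 (26.3%).

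Averaged over genes, after each gene was set relative to its own mean over 12 arrays, the 5 mast cell and basophil genes (Ms4a2, Hdc, Cpa3, Mcpt8 and Cma1) lay at 0.67, 2.62 and -1.06 log2 units on mutant bcCML arrays 1 to 3 and at 2.43, 2.14 and 0.57 on the wild-type bcCML arrays. Mutant bcCML array 2 was the highest of the 12, and mutant bcCML array 3 was within the AML range of -1.94 to -0.16. By gene, array 3 of mutant bcCML was above every AML array for Ms4a2 (712 units) and Cma1 (31.5). It was below every AML array for Mcpt8 (45.6), and within the AML range for Hdc (858). For Cpa3 it was under the detection level (8.26), as were wild-type AML array 2 (10.3) and mutant AML array 2 (8.40). The 2 tested eosinophil genes lay at 2.98, 2.21 and 2.09 in wild-type AML, at 3.12, -1.41 and -0.57 in mutant AML, at 1.95, 0.04 and -2.54 in wild-type bcCML and at -1.80, -1.77 and -4.30 in mutant bcCML. Here mutant bcCML arrays 1 and 2 were nearly level, and array 3 was the lowest of the 12.

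Markers of other myeloid cells moved with some of these arrays. The 10 tested neutrophil granule genes (of 10 on the array) lay at -2.75, -2.02 and -3.47 on mutant bcCML arrays 1 to 3 and at -1.33, -1.28 and -2.42 on the wild-type bcCML arrays, so array 3 was the lowest of both groups for them as well. Their summed intensity ranged from 3186 to 14904 units in mutant bcCML, 10486 to 34851 in wild-type bcCML, 79078 to 122440.0 in wild-type AML and 151460.0 to 179390.0 in mutant AML. The 10 tested monocyte and macrophage genes (of 11) lay between -3.10 and -2.56 on all 6 bcCML arrays, and in AML mutant array 1 was the lowest at 1.44, beside 2.81 to 3.72 on the other 5. Their summed intensity was 723 to 1349.6 units in bcCML, 17478 to 69447 in mutant AML and 33302 to 45304 in wild-type AML. The erythroid genes (6 of 8 tested) ran from -3.22 to -2.96 in AML and 2.03 to 4.29 in bcCML, and the megakaryocyte genes (7 of 8) from -2.95 to -1.71 in AML and 1.17 to 3.47 in bcCML. The part of these cells in the values of the mast cell, basophil and eosinophil genes was not tested. In such bulk samples fewer cells of a type and less RNA per cell cannot be told apart.

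**Figure D4:**
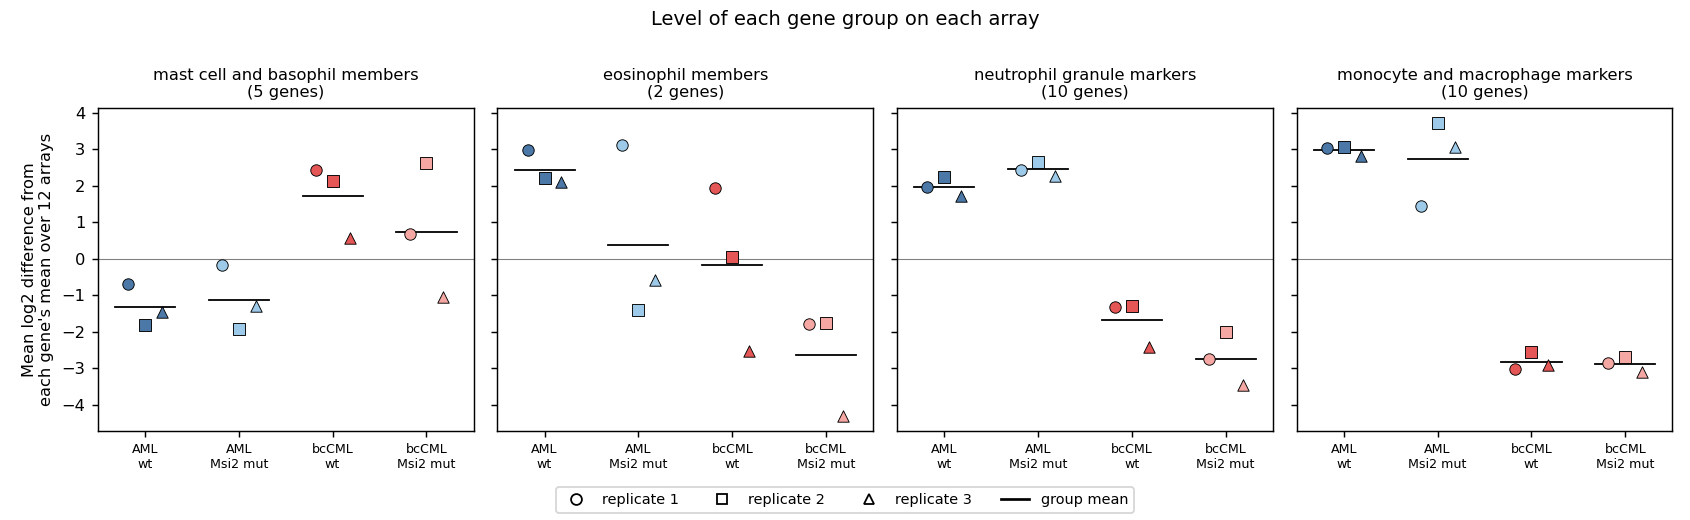
Mean log2 level of 4 gene groups on each array, relative to each gene's mean over the 12 arrays, by group, with 1 symbol per replicate and a bar at the group mean. Mutant bcCML array 3 is the lowest bcCML array in the mast cell and basophil, eosinophil and neutrophil panels, and mutant AML array 1 stands lowest of AML in the monocyte panel and highest in both panels of the genes described here.

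Genes of these cells that were not detected are named here, beside some that were. Tpsb2, Tpsab1, Tpsg1 and Mcpt4, proteases of connective tissue mast cells, were under 16 units on all 12 arrays. The same held for the eosinophil receptors Il5ra and Ccr3, for Hrh4 and Ptgdr2, and for the cytokines Il13, Il5, Il3, Il9 and Il10. Without the 10 genes above, it held for 3 of 10 granule protease and proteoglycan genes on the array. It held for 7 of 23 receptors and 5 of 17 cytokines. Cma1 and Cpa3, which mast cells also store, were detected on bcCML arrays. Kit, Csf2rb and Itgb7 were detected on all 12 arrays. Of the basophil marker Cd200r3, wild-type bcCML arrays 1 and 2 gave 30.3 and 32.2 units and the other 10 arrays 4.57 to 9.55. Siglecf, a lectin of eosinophils and other myeloid cells, was detected on all arrays from 766 to 2437 units and passed no test.

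Genes around the IgE receptor were described from lists of related genes, without the 10 genes above. Beside their counts, 36.9% of all genes passed in wild-type cells (17.7% higher and 19.3% lower in bcCML) and 45.1% in mutant cells (23.2% higher and 21.9% lower). Of the receptor's gamma chain (Fcer1g) and the signalling genes below it, 14 of 15 on the array were tested, and in wild-type cells 3 were higher and 6 lower in bcCML, with a median difference of -0.31 log2 units beside 0.00 over all tested genes. In mutant cells 3 were higher and 6 lower, with a median of -0.43 beside 0.03. Fcer1g, a chain shared with other Fc receptors, was among the lower genes, at 6483 to 9834 units in AML and 3041 to 4634 in bcCML. Lat, the adaptor that the receptor's kinases phosphorylate, lay at 45.7, 16.7 and 20.9 units in wild-type AML and 1462, 1609 and 2126 in wild-type bcCML, higher by 6.09 ± 0.66 (limma adjusted p = 6.062e-05). Its mutant arrays read 73.8, 8.04 and 25.7 in AML and 2379, 2228 and 2111 in bcCML, without overlap. Prkcd, a protein kinase C, went the other way, from a mean of 909 units in wild-type AML to 229 in wild-type bcCML (adjusted p = 0.0001046). Bmx, a Tec family kinase, was at least 6.49-fold lower in wild-type bcCML.

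Of the granule protease and proteoglycan genes, 5 of 10 were tested, with 1 higher (Gzmb) and 1 lower (Ctsl) in wild-type bcCML, and 2 higher and 2 lower in mutant bcCML. Gzmb, granzyme B, a protease of cytotoxic cells that mast cells can also carry, lay at 4.51 to 4.52 units in AML and at 985 to 2384 in wild-type and 3344 to 5510.1 in mutant bcCML. It was at least 103.7-fold higher in wild-type bcCML (limma adjusted p = 1.472e-08). Markers of T and NK cells were measured beside it, with 3 of 7 tested and Cd3e, Cd3d and Cd3g under 16 units on all 12 arrays. The mean of the 3 tested genes lay between -1.67 and 0.05 log2 units in AML and between 0.81 and 1.64 in bcCML, with summed intensities of 1529 to 8038 and 8621 to 11789.6 units. Thy1 was higher in wild-type bcCML by 7.87 ± 0.51 (limma adjusted p = 1.549e-06), Nkg7 was higher by 1.55 ± 0.36 (adjusted p = 0.007396), and Cd2 was at least 2.90-fold lower (adjusted p = 0.001846). The part of such cells in the Gzmb values was not tested. Gzmb lies on chromosome 14 with 7 protein-coding genes between it and Mcpt8.

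The enzymes and transporters of amines and eicosanoids had 11 of 16 tested, of which 6 were higher and 3 lower in wild-type bcCML and 5 higher and 3 lower in mutant bcCML, where 36.9% and 45.1% of all genes passed. Their median difference was 1.47 in wild-type and 1.15 in mutant cells, beside 0.00 and 0.03 over all tested genes. Slc18a2, which loads amines such as histamine into vesicles, lay at 42.5 to 97.7 units in AML and at 1761 to 3050 in bcCML. The difference in wild-type cells was 5.30 ± 0.32 log2 units (limma adjusted p = 9.239e-07). Tph1, which makes serotonin's precursor, lay at 4.68 to 11.4 units in AML and 1284 to 5568 in bcCML, at least 129.4-fold higher in wild-type cells. Unlike Hdc, neither gene overlapped between the leukaemias.

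Receptors of these cells had 15 of 23 tested, with 1 higher and 5 lower in wild-type bcCML and 1 higher and 4 lower in mutant bcCML. Il18r1, a chain of the interleukin-18 receptor, lay at 7.97 to 14.1 units in AML and at 664 to 1923 in bcCML, and was at least 66.3-fold higher in wild-type bcCML. Csf2ra, a chain of the GM-CSF receptor, went from 3173 to 332 units. In the comparisons with the Msi2 trap 1 gene of the 7 related lists passed, where each list had 3 to 27 genes tested. Of all genes 1.52% passed in AML, 0.139% in bcCML and 0% in the difference between them. The gene was Il3ra, 1 of the 15 tested receptors, and it passed in AML. It encodes the chain that binds interleukin-3, a growth factor of mast cells and basophils. Il3ra read 316, 371 and 246 units in wild-type AML and 59.3, 88.8 and 109 in mutant AML, without overlap, a difference of -1.89 ± 0.27 (limma adjusted p = 0.01273). The call ended without wild-type AML array 1 (adjusted p = 0.0624), in a fit of the 6 AML arrays alone (0.1535) and with a replicate block (0.0662). In bcCML Il3ra overlapped, at 97.8 to 121 units in wild-type and 67.3 to 118 in mutant cells.

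Among cytokines 8 of 17 were tested, with 4 higher and 1 lower in bcCML in wild-type and in mutant cells. Il6 lay at a mean of 4.51 units in wild-type AML and 180 in wild-type bcCML, at least 10.7-fold higher. Il4, an interleukin of basophils and mast cells, averaged 5.28 units in wild-type AML and 28.8 in wild-type bcCML, and its call ended where values under 16 units were set to 16 (adjusted p = 0.125). Of the other eosinophil granule and ribonuclease genes 6 were on the array and 3 were tested, of which 2 were lower in bcCML in wild-type and in mutant cells. They were Chil3, a chitinase-like protein also made by other myeloid cells, which went from 14502 to 76.6 units in wild-type cells, and Ear3, an eosinophil-associated ribonuclease, which averaged 77.9 units in wild-type AML and was at least 4.34-fold lower in wild-type bcCML. The Ear3 call in wild-type cells also ended where values under 16 units were set to 16 (adjusted p = 0.125).

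Transcription factors of these lineages had 27 of 29 tested, with 5 higher and 8 lower in wild-type bcCML and 5 higher and 10 lower in mutant bcCML, where 36.9% and 45.1% of all genes passed. Their median difference was -0.18 in wild-type and -0.46 in mutant cells, beside 0.00 and 0.03 over all tested genes. Gata1 lay at 8.51 to 9.44 units in AML and at 850 to 1907 in bcCML, and was at least 70.8-fold higher in wild-type cells. Tal1 lay at 4.75 to 7.99 units in AML and 1285 to 2290.1 in bcCML. Lmo2 went the other way, from a mean of 11097 units in wild-type AML to 3624 in wild-type bcCML (limma adjusted p = 6.036e-06). So did Tfec, from a mean of 2262 to 43.5 units in wild-type cells (limma adjusted p = 1.554e-05). Gata2, detected on all 12 arrays, read 2453, 434 and 4901 units in wild-type AML and 881, 187 and 530.4 in mutant AML. It read 14995 to 16527 in wild-type and 14650 to 15490 in mutant bcCML. Every bcCML array was above every AML array, and the AML arrays of Gata2 spread over a wide range while those of bcCML did not. Gata1, Tal1 and Gata2 also act in the erythroid and megakaryocyte lineages, whose markers moved in the same direction.

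**Figure D5:**
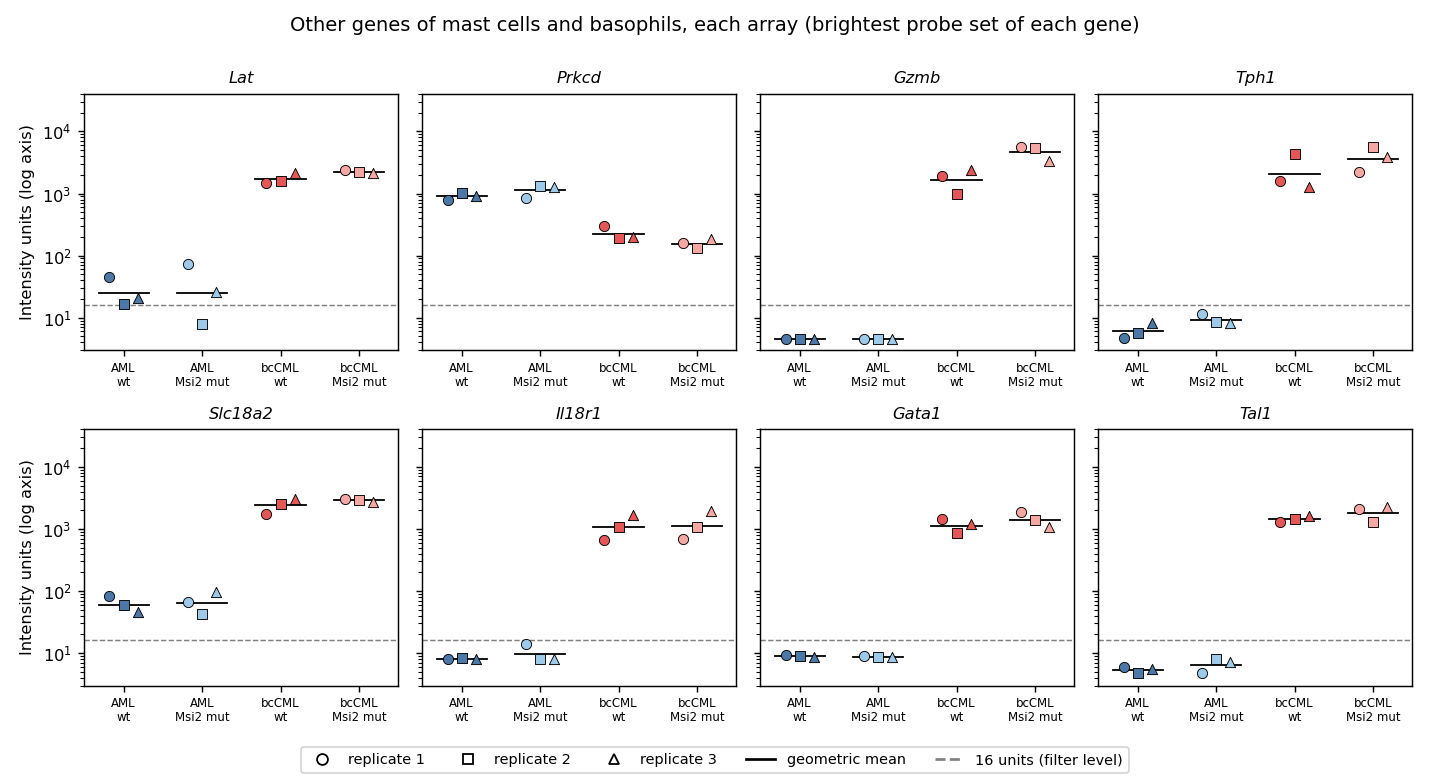
Intensity of 8 related genes on each array (log axis), by group, with 1 symbol per replicate, a bar at the group's geometric mean and a dashed line at 16 units. Lat, Gzmb, Tph1, Slc18a2, Il18r1, Gata1 and Tal1 are higher on every bcCML array than on every AML array, and the group means of Prkcd are lower in bcCML.

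Other genes were ranked by likeness to the mean pattern of the 7. The 7 did not share a direction: between the wild-type leukaemias Ms4a2 differed by 6.36 and Prg3 by -3.80 log2 units. A gene near that mean thus need not resemble any single gene of the 7. Each gene was centred on its own mean. The measure was the root mean square difference over the 12 arrays between a gene's log2 values and the mean of the 7. Over 10810 genes the smallest were those of Hgf (0.582), Emid1 (0.688), Auts2 (0.724), Carmil1 (0.824) and Smarcd1 (0.841), where the mean of the 7 itself had a root mean square of 1.27. Hgf, hepatocyte growth factor, read 119.7, 43.8 and 53.2 units in wild-type AML and 78.7, 54.7 and 41.7 in mutant AML. In bcCML Hgf read 526, 229 and 75.8 on the wild-type arrays and 65.9, 99.3 and 30.8 on the mutant arrays, with mutant array 3 lowest and mutant array 2 highest of their group.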

How the data were processed

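RNA was measured on 12 Affymetrix arrays, 1 per sample. The deposited values are linear intensity per probe set, which the authors computed; per the submitters' processing notes GCRMA was the method, and its version and settings are not given in the sources used here. This method subtracts a background predicted from probe sequence. Dim probe sets therefore share a floor of 4.49, and changes near it are measured in part. Probe sets were named from GEO's platform annotation (34945 with 1 gene symbol, 932 with several, 9160 not listed). Log2 values had no pseudocount added. The filter kept probe sets with log2 above 4 (16 units) on at least 3 of 12 arrays, and each gene took its probe set of highest mean. Group means were fitted over all 12 arrays with limma 3.58.1 in R 4.3.3 (8 residual and 2.19 prior degrees of freedom). Tests were two-sided, with Benjamini-Hochberg adjustment over 10817 genes and a threshold of 0.05. The code was tested on simulated data. Where all arrays of a group were under 16 units, a ratio is a bound against 16.

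The 10 genes, the gene lists and the comparisons were chosen with earlier results of these data known. All 10 genes are named. From each related list the 4 genes of smallest p between wild-type bcCML and AML and the 2 of smallest p in each comparison with the trap could be named, and Fcer1g and other genes named as absent, detected on few arrays or named as a cell marker were chosen after their values were seen. Replicate numbers recur in every group. In bcCML the deviations of same-numbered wild-type and mutant arrays from their group means had correlations of 0.396, 0.364 and 0.278. These numbers were taken to pair the bcCML arrays, which rests on the data since no label states it. For AML the correlations were -0.0552, -0.121 and -0.0302, and no pairing was taken. Between the wild-type groups of the leukaemias same-numbered arrays gave 0.0164, 0.235 and 0.111, and between the mutant groups 0.0361, -0.0236 and -0.0755. Arrays of different numbers were not compared, so the bcCML pairing was assumed and not shown. Alternatives were other filters, probe set rules, normalisation, a floor of 16, other eBayes settings, the 6 arrays of a comparison alone, a replicate block and leaving out each array. The number of arrays limits the precision of every value. Promoters were matched by symbol to a RefSeq table (GRCm38.p6), with 8 of the 10 found. Figures were drawn with matplotlib 3.10.9.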

Additional observations from a re-analysis of the deposited data

How the results depend on the processing

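Over 35 combinations of gene and comparison and all alternatives, 688 of 728 values kept direction and side of the threshold, 15 lost a call, 0 gained one and 25 changed sign, the last all on leaving out an array and all in differences that were not called. In wild-type cells the count of genes called between the leukaemias went from 4 to 2 with no filter on low values, where Hdc (adjusted p = 0.09796) and Prg3 (0.06529) no longer passed over 18193 genes, and ran from 2 to 4 on leaving out each array, with 2 without wild-type AML array 2. In mutant cells it ran from 2 to 3, and in the comparisons with the trap it stayed at 0. With values under 16 set to 16 the counts were 3 and 2. The replicate block, which ties same-numbered arrays over all 12, those of AML included, left the counts at 0, 0, 0, 4 and 3. It changed no call of these genes. Its adjusted p for Il3ra in AML, where the numbers did not pair the arrays, was 0.0662.

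Leaving out each array, the AML difference ran from -0.51 to 0.80 for Ms4a2 and -1.77 to 0.96 for Cpa3, and the bcCML difference from -0.77 to 0.13 for Ms4a2 and -0.96 to 0.78 for Cma1. The difference between those ran from -1.23 to 0.091 for Ms4a2, -2.66 to 0.20 for Cpa3, -2.35 to 0.61 for Prg2, -1.01 to 1.35 for Prg3 and -0.98 to 0.76 for Cma1. Cpa3 between the mutant leukaemias ran from -1.03 to 1.83. Without a change of sign, the bcCML difference ran from -4.23 to -1.59 for Prg2, -3.33 to -0.68 for Mcpt8, -3.01 to -0.19 for Cpa3 and -3.00 to -0.88 for Prg3, and the AML difference from -3.63 to -0.66 for Prg2 and -3.21 to -1.11 for Prg3. The cause of these changes was not tested beyond the array left out. Fcer1a, Tpsb2 and Epx, at the floor on most arrays, have no measured change.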

Other observations

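Several genes were detected on mutant bcCML array 2 and on few or no other arrays, a pattern chosen after the values were seen, with no test. They include genes of mast cells and basophils and 1 of cytotoxic lymphocytes. How many of all genes show such a pattern, on this or on another array, was not counted. Besides Fcer1a at 246 units, Mcpt1, a mucosal mast cell protease, read 71.4 units there and 4.49 to 5.79 on the other 11 arrays. Mcpt2, another such protease, read 71.5 there, 22.1 on mutant bcCML array 1 and 4.50 to 11.8 on the other 10. Ccl1, a chemokine that mast cells can make, read 74.4 there and 4.49 to 4.92 elsewhere. Csf2, which encodes GM-CSF, read 59.5 there, 22.6 on mutant bcCML array 3 and 4.52 to 10.7 elsewhere. Gzma, granzyme A of T and NK cells, read 969 there, 96.9 on wild-type bcCML array 2 and 4.50 to 8.46 elsewhere, while Cd3e, Cd3d and Cd3g were under 16 units on it. The part of other cell types in this array was not tested. Ms4a2, Cpa3, Hdc, Mcpt8, Cma1 and Prg3 were also highest on this array among the 3 mutant bcCML arrays, with Prg3 under the detection level. Prg2 was nearly level on mutant bcCML arrays 1 and 2, at 149.5 and 148 units. Cd200r3 read 9.55 there, below wild-type bcCML arrays 1 and 2.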
